A study of Sus scrofa with 16 samples.

Results

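Immediate early genes encode transcription factors and other regulators that cells switch on within minutes of a stimulus, without new protein synthesis. The group described here joins the NR4A nuclear receptors (NR4A1, NR4A2, NR4A3), which act without a known ligand, the AP-1 subunits (FOS, FOSB, FOSL1, JUN, JUNB), which bind DNA as dimers, the zinc-finger factor EGR1 and the stress-responsive factor ATF3. In the heart these genes respond to stretch, adrenergic signals, ischaemia and the handling of the tissue itself, and their transcripts are short-lived. Members were the probe sets of a porcine Affymetrix array whose single gene symbol was one of the 10 names. They came to 12 probe sets of 23999, for 7 genes of the 6765 with a symbol: NR4A2, NR4A3, FOS, FOSL1, JUN, EGR1 and ATF3. NR4A1, FOSB and JUNB were not analysed here.

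The arrays measured left ventricular RNA of 16 Yorkshire x Landrace pigs aged 2 to 3 months, 1 array per animal, 3 weeks after surgery. A total of 8 animals had a myocardial infarction (MI) and 8 a sham operation (Sham). By label, 4 animals of each group were female and 4 were neutered males. Where the tissue lay relative to the infarct is not given in the sources used here. Animals are named by group and number, and values are log2 signals, so that a difference of 1 is a 2-fold change.

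Arrays correlated at 0.972 to 0.992 across probe sets, and 13 of 16 cardiomyocyte marker genes were measured, all above background, with 0 passing between MI and Sham. Background was 4.99, the highest value among 23 control probe sets without a target in the sample. Spike-in controls divided the arrays into a set A of 11 (6 MI and 5 Sham) and a set B of 5 (MI 7, MI 8, Sham 6, Sham 7 and Sham 8), which the labels do not mention. The signal of actin at its 3′ end exceeded that at its 5′ end by 2.64 ± 0.29 (SD, n = 11) in set A and by 1.42 ± 0.14 (SD, n = 5) in set B. It did not separate the groups (MI 2.39 ± 0.59 and Sham 2.12 ± 0.68, SD, n = 8 each, exact permutation p = 0.394, two-sided). MI 7 was labelled female, but its EIF1AY signal, from the Y chromosome, was 9.51, within the range of the animals labelled male (9.40 to 9.96) and above that of the other females (3.00 to 3.51). In bulk tissue, fewer cells of a type and less RNA per cell cannot be told apart.

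The members differed in how much they varied. FOS, ATF3, NR4A3 and EGR1 differed widely from animal to animal within both groups, whereas FOSL1 and JUN varied by less and NR4A2 was not above background in 14 of 16 animals. FOSL1 was the 1 gene that differed between MI and Sham, by a small amount. NR4A3 had the largest mean difference of the 7 genes, a lower signal in MI, but it did not pass the test. No animal was among the 4 highest for all of the 7 genes.

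**Figure D1:**
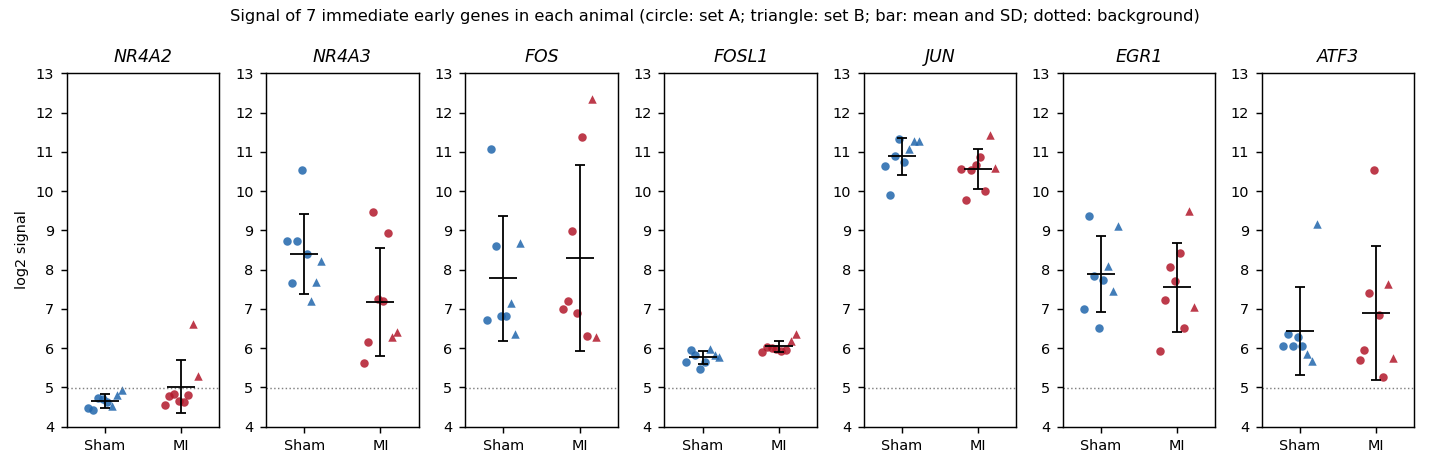
Log2 signal of the 7 measured genes (vertical axis) in Sham and MI animals, 1 point per animal, with circles for set A, triangles for set B, bars for the mean and SD of 8 animals and a dotted line at the background of 4.99. Points of both groups overlap in every panel, and single animals stand far above the rest for FOS and ATF3.

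NR4A3 encodes an orphan nuclear receptor that regulates metabolic and stress genes in muscle and heart. Its brighter probe set, Ssc.761.1.S1_at, read 5.63, 6.15, 9.47, 7.25, 7.20, 8.94, 6.29 and 6.42 in MI 1 to MI 8. It read 8.73, 7.66, 8.73, 10.53, 8.40, 7.19, 7.68 and 8.23 in Sham 1 to Sham 8. MI 3 and MI 6 were higher than 7 of 8 Sham animals, the other 6 MI animals lay below the Sham mean, and the groups overlapped. The means were 7.17 ± 1.37 in MI and 8.39 ± 1.02 in Sham (SD, n = 8 each). The difference of -1.23 (SE 0.44, 95% interval -2.16 to -0.29, 2.34-fold lower in MI) had a limma p of 0.0136 and an adjusted p of 0.0923. It passed under none of 30 alternatives (adjusted p 0.0537 to 0.338), and was -1.80 within set A, -1.35 within set B and -1.30 with the set as a block.

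The low NR4A3 signals in MI were those of the animals labelled female, among them MI 7, whose EIF1AY signal lay within the range of the males. Set B held 2 of these MI females, MI 7 and MI 8, and 0 MI males. The 4 MI females read 5.63 to 6.42 (6.12 ± 0.34, SD, n = 4) and the 4 Sham females 7.68 to 8.73 (8.39 ± 0.49, SD, n = 4), with no overlap. Over all probe sets, 4.96% had every MI female below every Sham female. MI males averaged 8.21 ± 1.17 and Sham males 8.40 ± 1.48 (SD, n = 4 each) and overlapped. The difference was -2.26 in females (SE 0.62, adjusted p = 0.0643) and -0.19 in males (SE 0.62, adjusted p = 0.898), neither passing by limma. The difference between these, which is the test of a sex-dependent response, was -2.08 (SE 0.88, 95% interval -3.95 to -0.20) with an unadjusted p of 0.0321 and an adjusted p of 0.794. Without Sham 4, a male with the highest NR4A3 signal, the female difference was the same and its limma adjusted p was 0.0179, the 1 of 27 alternatives in which it passed; without any other single animal it did not pass (adjusted p up to 0.149). Without MI 7 the difference was -2.32 in females (adjusted p = 0.114) and the contrast between the sexes -2.13 (adjusted p = 0.979). With the set of arrays as a block they were -2.12 (adjusted p = 0.0758) and -1.63.

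A second NR4A3 probe set, Ssc.761.2.S1_a_at, was not above background in either group mean and stood apart from the brighter one in MI 7. It read 4.33 to 4.63 in the MI animals other than MI 7, which read 6.74, and 4.38 to 5.21 in the Sham animals, with the highest Sham value in Sham 4. MI 7 and Sham 4 were the 2 animals above background. The mean difference was 0.01 with all animals (adjusted p = 0.986). Without MI 7 it was -0.29 (SE 0.08, adjusted p = 0.0441), and within set A it was -0.37 (adjusted p = 0.0391). The 2 probe sets of NR4A3 correlated at r = -0.160 across MI animals and 0.632 across Sham animals (rho 0.524 and 0.143, exact permutation p = 0.731 and 0.120, adjusted over 14 tests 0.787 and 0.209). The MI value includes MI 7. Among the other MI animals both probe sets were lowest in MI 1 and highest in MI 3, and in Sham both were highest in Sham 4. The mean of the 2 probe sets differed between the groups by -0.61 (adjusted p = 0.277).

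**Figure D2:**
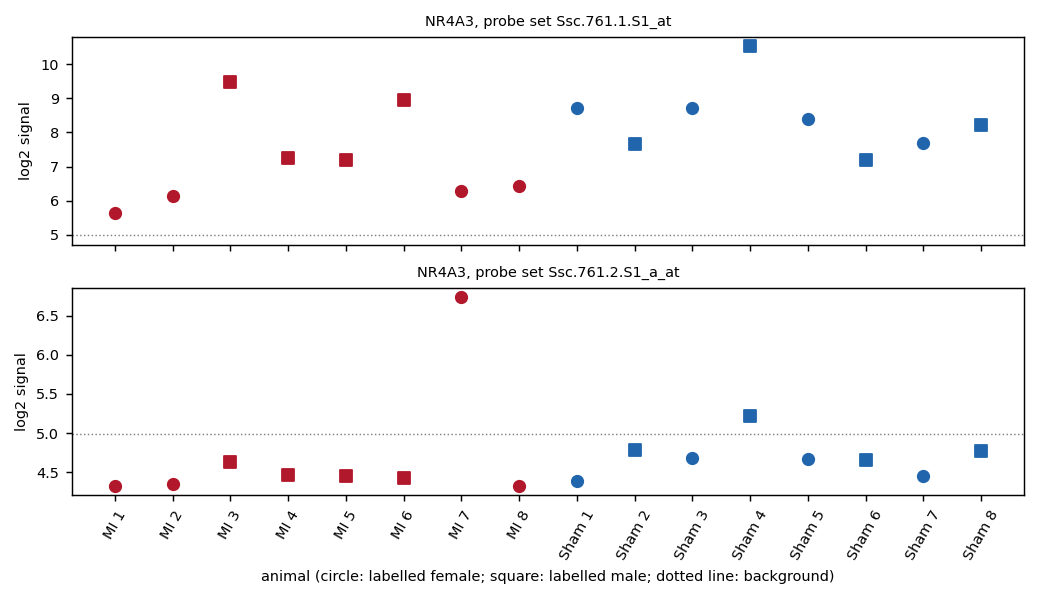
Log2 signal of the 2 NR4A3 probe sets (vertical axes, different ranges) in each of the 16 animals (horizontal axis), with circles for animals labelled female, squares for those labelled male and a dotted line at the background of 4.99. In the upper panel the 4 MI females lie between 5.63 and 6.42, below the 4 Sham females; in the lower panel MI 7 stands alone at 6.74.

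NR4A2, a close relative known for its part in dopamine neurons and in stress responses, was near the limit of the array. It read 4.55 to 4.83 in the MI animals of set A, 5.30 in MI 8 and 6.63 in MI 7, and 4.43 to 4.94 in Sham. MI 7 and MI 8 were above background, and no Sham animal was. The difference was 0.36 (SE 0.22, 95% interval -0.10 to 0.83, adjusted p = 0.350) and became 0.15 without MI 7 (adjusted p = 0.465). Within set A it was 0.10 (adjusted p = 0.504).

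Of the 7 genes FOSL1 alone passed between MI and Sham at an adjusted p under 0.05, which is 1 of 7 genes and 1 of 12 probe sets beside 10.5% of all probe sets and 7.63% of all genes with a symbol. The share is near the background, so the count says nothing particular about the group. FOSL1 encodes FRA-1, a FOS-related AP-1 subunit that lacks the transactivation domain of FOS. Its brightest probe set, Ssc.3391.2.S1_at, read 5.92, 6.03, 6.0, 5.99, 5.94, 5.94, 6.19 and 6.35 in MI 1 to MI 8. It read 5.65, 5.95, 5.83, 5.47, 5.64, 5.98, 5.84 and 5.78 in Sham 1 to Sham 8. All 8 MI animals lay above the Sham mean, but Sham 2 and Sham 6 reached into the MI range. FOSL1 rose from 5.77 ± 0.17 to 6.04 ± 0.15 (SD, n = 8 each), a difference of 0.28 (SE 0.08, 95% interval 0.10 to 0.45) or 1.21-fold, with a limma adjusted p of 0.0435.

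The FOSL1 call was narrow. It held without MI 1, Sham 2, Sham 6 or Sham 7 and was lost without any other single animal (adjusted p 0.0309 to 0.0830 over the 16 omissions). It held with the set of arrays as a block (0.30, adjusted p = 0.0116) and did not within set A (0.26, adjusted p = 0.10). Of the other FOSL1 probe sets, Ssc.3391.1.S1_at was not above background in any animal (difference 0.26, adjusted p = 0.0932) and Ssc.3391.3.S1_at differed by 0.08 (adjusted p = 0.637). The 3 probe sets did not vary together across animals, with r from -0.689 to 0.314 within the groups. The difference was 0.38 in females (SE 0.12, adjusted p = 0.0959) and 0.17 in males (SE 0.12, adjusted p = 0.440), and the contrast between the sexes was 0.21 (95% interval -0.14 to 0.56, adjusted p = 0.814).

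Some markers of other cell types passed between the groups, and the counts stand beside 7.63% of all genes. Of 9 measured T and NK cell genes 4 rose in MI (CD3D, CD8B, CD247 and IL7R) and 1 fell (CD4), with IL7R and CD4 not above background, and the log2 of their summed signal ran from 8.60 to 9.36 in MI and from 8.75 to 9.45 in Sham. Of 5 erythroid genes 3 rose (HBE1, which was not above background, HBM and AHSP), with sums of 8.97 to 10.01 in MI and 8.80 to 9.41 in Sham. CD14 rose among 8 macrophage and monocyte genes (sums 11.07 to 11.95 and 11.30 to 11.62), MMP9 among 5 neutrophil genes, of which 1 was above background (6.69 to 7.14 and 6.60 to 8.04), and MS4A2 among 2 mast cell genes (8.59 to 9.75 and 7.77 to 9.48). Of 7 adipocyte genes PPARG and ADIPOQ rose and RETN fell (12.89 to 13.23 and 12.57 to 13.33). Fibroblast, smooth muscle, endothelial and atrial lists had 0 genes passing. The part of these cells in the FOSL1 difference was not tested.

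FOS, the founding AP-1 subunit, had the widest range of the group. It read 6.99, 7.20, 8.97, 6.89, 11.39, 6.30, 12.35 and 6.27 in MI 1 to MI 8, and 6.71, 11.08, 8.60, 6.82, 6.82, 7.14, 6.37 and 8.67 in Sham 1 to Sham 8. MI 5, MI 7 and Sham 2 stood above 11, while the median was 7.09 in MI and 6.98 in Sham. The highest animal was 67.7-fold above the lowest. The means of 8.30 ± 2.37 in MI and 7.78 ± 1.59 in Sham (SD, n = 8 each) differed by 0.52 (SE 0.94, 95% interval -1.48 to 2.52, adjusted p = 0.802). Without MI 7 the difference turned to -0.17 (adjusted p = 0.922), and within set A to -0.42 (adjusted p = 0.832).

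JUN, the main partner of FOS in AP-1, was far above background in every animal and more even. It read 9.77 to 11.43 in MI, lowest in MI 2 and highest in MI 7, and 9.91 to 11.31 in Sham, lowest in Sham 2 and highest in Sham 4. The means were 10.56 ± 0.50 and 10.89 ± 0.47 (SD, n = 8 each), and 7 of 8 MI animals lay below the Sham mean. The difference of -0.33 did not pass (SE 0.24, 95% interval -0.84 to 0.17, adjusted p = 0.449), nor did that of -0.47 without MI 7 (adjusted p = 0.196).

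EGR1, an early growth response factor downstream of serum response factor, read 5.93, 7.23, 8.08, 7.71, 8.41, 6.52, 9.50 and 7.04 in MI 1 to MI 8. It read 7.0, 9.35, 7.83, 6.52, 7.73, 8.09, 7.46 and 9.11 in Sham 1 to Sham 8. MI 7, Sham 2 and Sham 8 were the 3 highest animals and the groups overlapped along most of their range. The difference was -0.34 (SE 0.48, 95% interval -1.36 to 0.69, adjusted p = 0.743), and -0.68 without MI 7 (adjusted p = 0.326). The other 2 EGR1 probe sets differed by -0.34 (adjusted p = 0.718) and -0.0076 (adjusted p = 0.992). The 3 EGR1 probe sets varied together across animals, with r from 0.762 to 0.943 in MI and from 0.666 to 0.899 in Sham, so the high and low animals did not rest on a single probe set.

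ATF3, a factor of the ATF and CREB family induced by many stresses, read 5.71, 5.97, 7.41, 10.54, 6.85, 5.28, 7.64 and 5.76 in MI 1 to MI 8. It read 6.07, 6.37, 6.06, 6.30, 6.06, 5.86, 5.66 and 9.16 in Sham 1 to Sham 8. A single animal in each group, MI 4 and Sham 8, stood far above the rest, and these were not the animals with the highest FOS. The difference of 0.45 (SE 0.63, 95% interval -0.89 to 1.79, adjusted p = 0.734) became -0.05 without MI 4 (adjusted p = 0.969) and 0.82 without Sham 8 (adjusted p = 0.450).

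**Figure D3:**
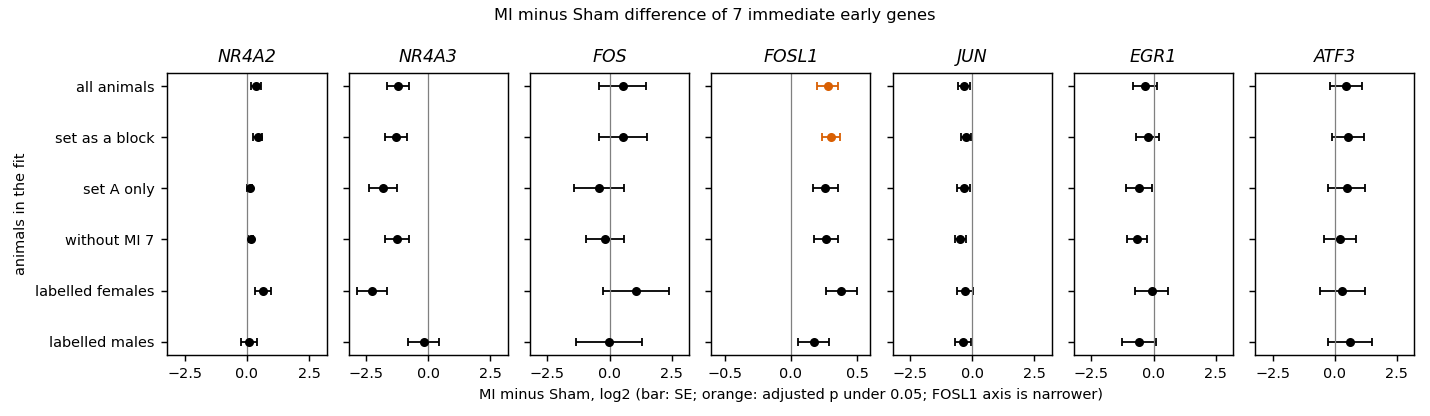
MI minus Sham difference on the log2 scale (horizontal axis, narrower for FOSL1) for each of the 7 genes, as the limma estimate with its SE, in all animals, with the set as a block, in set A, without MI 7, and within labelled females and males; orange marks an adjusted p under 0.05. FOSL1 lies above 0 in all 6 rows and passes in 2; NR4A3 lies below 0 in all 6 and is -2.26 in females and -0.19 in males.

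Within the groups, the spread between animals was large for 4 of the genes. The SD of FOS exceeded that of 99.97% of probe sets in MI and 99.93% in Sham, that of ATF3 99.94% and 99.75%, that of NR4A3 99.90% and 99.64%, and that of EGR1 99.79% and 99.57%. JUN stood at 95.8% and 94.5%. NR4A2 stood at 98.6% in MI, where MI 7 was high, and at 43.5% in Sham. FOSL1 lay below the middle, at 34.0% and 42.3%. From the lowest to the highest of the 16 animals the range was 38.5-fold for ATF3, 29.7-fold for NR4A3, 11.9-fold for EGR1, 3.16-fold for JUN and 1.84-fold for FOSL1. No such fold is given for NR4A2, whose lowest animals were not above background.

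Whether the spread itself differed between MI and Sham could hardly be tested with 8 animals a group. A limma test of each value's distance from its group median called 0 of the 7 genes, beside 0% of all probe sets, but on simulated data the same test found few of the probe sets given a much larger spread in MI, so the count of 0 does not show that the spreads were alike. At an unadjusted p under 0.05 it called 0 of the 7 genes and 778 probe sets (3.24%). The distance was larger in MI for 5 genes, by 0.68 for ATF3 (SE 0.52) and 0.59 for FOS (SE 0.78), and smaller for FOSL1 and JUN.

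Sex and array set were examined in the same way. In females against males over both groups 0 of 7 genes passed beside 0.0583% of probe sets, and NR4A3 was lower by 1.05 in females (unadjusted p = 0.0299, adjusted p = 0.998). For the contrast between the sexes in their MI difference 0 of 7 genes passed in limma beside 0% of probe sets, with 1 gene, NR4A3, and 1363 probe sets (5.68%) at an unadjusted p under 0.05. Within females 0 of 7 genes passed beside 2.85% of probe sets and 2.1% of genes. Within males 0 of 7 passed beside 3.4% of probe sets and 2.42% of genes. In set B against set A 0 of 7 genes passed beside 17.6% of probe sets and 23% of genes. JUN was 0.65 higher in set B (SE 0.24, adjusted p = 0.0734), NR4A2 0.58 (SE 0.22, adjusted p = 0.0867), EGR1 0.84 (SE 0.55, adjusted p = 0.332) and FOSL1 0.21 (adjusted p = 0.108), while NR4A3 was lower by 0.59 (adjusted p = 0.487). The dim FOSL1 probe set Ssc.3391.1.S1_at passed (0.28, adjusted p = 0.0409).

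Over the 7 genes the median MI minus Sham difference was 0.28, beside -0.00035 over all probe sets, with 4 genes higher and 3 lower. The median size of the difference without its sign was 0.36, beside 0.11 over all probe sets. Of the 7 genes 1 passed. The SE was larger than the size of the difference for FOS (0.94), ATF3 (0.63) and EGR1 (0.48), and smaller for the other genes. This median therefore does not show a larger response of the group to MI. Without MI 7 the median was -0.17, with 3 genes higher and 4 lower.

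The members were next read animal by animal. MI 7 had the highest signal of the 16 animals for NR4A2, FOS, JUN and EGR1, the second highest for FOSL1 and the third for ATF3, but ranked 14 for NR4A3. It was among the 4 highest animals for 6 of 7 genes. MI 3 was among them for 5 genes and Sham 8 for 4, and no other animal for more than 2. MI 4, highest for ATF3, was below the MI mean for FOS, and Sham 4, highest for NR4A3, was lowest of all for FOSL1. MI 1 was lowest for both NR4A3 and EGR1. The share of all genes for which MI 7 was among the 4 highest animals was not computed. MI 7 is in set B, where 6 of the 7 genes were higher than in set A and 0 passed.

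**Figure D4:**
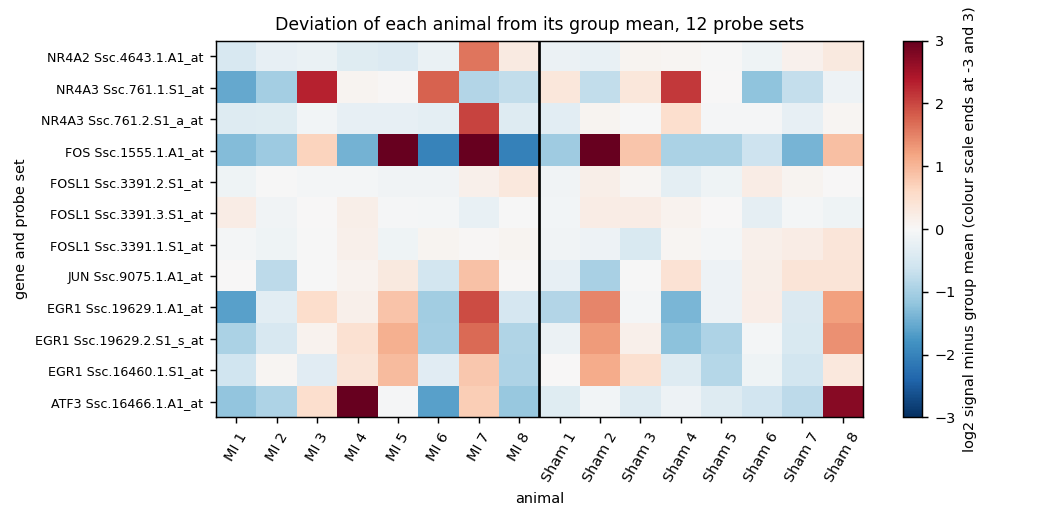
Deviation of each animal (horizontal axis) from its group mean in log2 signal (colour, scale ending at -3 and 3) for the 12 probe sets (vertical axis), with a line between MI and Sham. The 3 EGR1 rows share their pattern with FOS in MI 5, MI 7 and Sham 2, whereas the first NR4A3 row is high in MI 3, MI 6 and Sham 4.

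Covariation was computed over 21 gene pairs within each group, 42 tests in all, with exact permutation of the pairings. In MI 1 pair passed after adjustment, FOS with EGR1 (r = 0.868, exact p = 0.00191, adjusted p = 0.0458, n = 8). Its rank correlation did not pass (rho = 0.786, exact p = 0.0279, adjusted p = 0.235). Without the 2 animals farthest in FOS, MI 5 and MI 7, r was 0.607, and within set A it was 0.756 (n = 6). In Sham the same pair had r = 0.812 (rho = 0.810, exact p = 0.00903 and 0.0218, adjusted p = 0.126 and 0.229). This rested in part on Sham 2 and Sham 8, without which r was 0.410. Over the single omissions r ran from 0.745 (without MI 7) to 0.932 in MI and from 0.693 to 0.846 in Sham; in MI, with 7 animals left, the pair passed without MI 1 and missed the threshold without any other animal (adjusted p 0.0458 to 0.366).

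With each group's mean subtracted and all 16 animals pooled, an analysis added after seeing the data, FOS and EGR1 correlated at r = 0.842 (permutation adjusted p = 0.00126 over 21 pairs) and rho = 0.798 (adjusted p = 0.0166). This was the 1 pair of 21 that passed. The value was 0.698 without MI 7 and Sham 2, 0.774 without MI 7 alone, 0.828 within set A (n = 11) and 0.878 with the set means subtracted.

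NR4A3 had no positive relation with another member that passed. In MI its r with NR4A2, FOS, FOSL1, JUN, EGR1 and ATF3 was -0.227, -0.0411, -0.306, -0.203, 0.0836 and 0.0946 in that order, with rho from -0.119 to 0.238 and exact permutation adjusted p from 0.813 to 0.966. In Sham it was 0.203, -0.260, -0.896, 0.296, -0.646 and 0.0375. Of these the inverse relation with FOSL1 in Sham passed (r = -0.896, exact permutation p = 0.00218, adjusted p = 0.0458; rho = -0.881, exact p = 0.00724, adjusted p = 0.225). Without Sham 4 and Sham 6 it was -0.673, with the set means subtracted -0.863, and with the mean over each gene's probe sets -0.479. With single animals left out it ran from -0.938 to -0.796, passing without Sham 3 and missing the threshold without any other animal (exact permutation adjusted p 0.025 to 0.33). Over the pooled and centred 16 animals the same pair had r = -0.564 (permutation adjusted p = 0.172).

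FOS and JUN had r of opposite sign in the groups, a difference that was not tested. They had r = 0.738 in MI (rho = 0.405, exact permutation adjusted p = 0.320) and -0.679 in Sham (rho = -0.119, adjusted p = 0.380). Without the 2 animals farthest in FOS these values were 0.158 and -0.223, so both relations rest on those animals. NR4A2 and JUN were positive in both groups (r = 0.636 and 0.763, exact permutation adjusted p = 0.414 and 0.225), and without MI 7 and MI 8 the MI value was -0.624. NR4A2 was above background in 0 Sham animals and in 2 MI animals, MI 7 and MI 8, so its Sham value rests on signals under background. EGR1 and ATF3 had r = 0.501 in MI and 0.532 in Sham (rho = 0.810 and 0.286, adjusted p for r 0.562 and 0.564), the Sham value turning to -0.581 without Sham 2 and Sham 8.

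The median r over the 21 pairs was 0.273 in MI (leave-one-out SE 0.380, n = 8) and 0.0375 in Sham (SE 0.336, n = 8). Both lay within 1 SE of the medians over all pairs of genes, 0.005 and 0.009. In MI 8 of 21 pairs had r over 0.5 (38.1%, beside 16.9% of all gene pairs) and in Sham 5 of 21 (23.8%, beside 14.8%). The pairs share genes and animals.

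**Figure D5:**
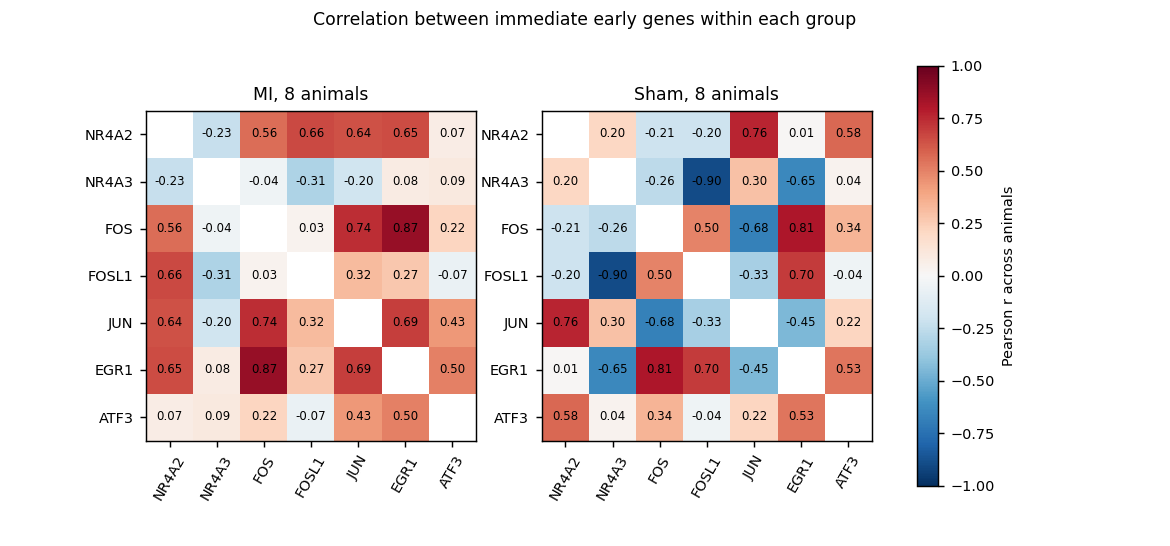
Pearson r between the 7 genes across the 8 MI animals (left) and the 8 Sham animals (right), with both axes listing the genes and colour from -1 to 1. FOS with EGR1 is the highest value in both panels, at 0.87 and 0.81, and the NR4A3 row reaches no higher than 0.0946 in MI.

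The genes whose pattern was most like that of NR4A3 were sought among 5918 genes with a mean above background in MI or Sham. They were ordered by r over the 16 animals after subtracting each group mean. The 5 highest were ZC3H14 (r = 0.784), ZNF706 (0.774), ERMP1 (0.747), FAM216B (0.746) and SLC39A14 (0.742), and none is a listed immediate early gene. ZC3H14 binds poly(A) tails of RNA and SLC39A14 is a zinc and iron importer. FAM216B ran over 4.26 to 7.20 across animals, whereas the other 4 ran over less than 1. The mean of FAM216B was 4.67 in MI, under the background of 4.99, and 5.39 in Sham. Within set A (n = 11) the same genes had r = 0.748, 0.810, 0.777, 0.786 and 0.690, while the 5 highest there were POU2F2 (0.924), C13H21orf59 (0.885), RBMX (0.873), SYNM (0.858) and EMC4 (0.851). SYNM had r = 0.164 over the 16 animals. These genes were picked as the highest of 5918, so their r is a description without a test. Among all 6765 genes, ordered by r with NR4A3, ATF3 ranked 2846 and FOSL1 6674.

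Other immediate early genes were read from a list of 55, of which 34 were measured and 29 were above background. GADD45A, a growth arrest and DNA damage gene, rose by 0.51 in MI (9.57 ± 0.33 to 10.08 ± 0.20, SD, n = 8 each, adjusted p = 0.0227). It passed in all alternatives but set B alone (0.55, adjusted p = 0.504). EGR4, a relative of EGR1 that was not above background, fell by 0.24 (adjusted p = 0.0244), a call lost without MI 2, MI 5 or Sham 3 (up to 0.0521), with the animal number as a replicate block (0.0525), with an offset of 32 (0.0521) and in set B alone (0.819). SOCS3, a feedback inhibitor of cytokine signalling also not above background, and the clock gene PER1 differed by 0.17 (adjusted p = 0.183) and -0.22 (adjusted p = 0.193). The median difference over the 34 was 0.07, and 2 of 34 passed, beside 7.63% of all genes.

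None of the 238 pairs of a member and a listed gene passed adjustment by permutation over the 16 centred animals (lowest adjusted p 0.0643, with 37 pairs at an unadjusted p under 0.05, all positive, and 0 passing by rho with 22 unadjusted). Among the closest pairs were several of FOS and of ATF3. FOS correlated with ZFP36, a destabiliser of AU-rich mRNAs, at r = 0.826 (rho = 0.726), and with DUSP1, a MAP kinase phosphatase, at r = 0.713 (rho = 0.702). MI 7 had the highest value of ZFP36 (10.02) and DUSP1 (12.21). ATF3 correlated with IER5 at r = 0.836 (rho = 0.393), with CYR61, a matricellular protein, at r = 0.821 (rho = 0.333), and with BTG2, an antiproliferative gene, at r = 0.782 (rho = 0.679). MI 4, which was highest for ATF3, also had the highest CYR61 (10.92) and IER5 (9.94). Without MI 7 and Sham 2, FOS and ZFP36 had r = 0.700 and FOS and DUSP1 0.50. Without MI 4 and Sham 8, ATF3 had r = 0.454 with IER5, 0.617 with CYR61 and 0.782 with BTG2.

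The 7 genes differed in how many of the 34 listed genes exceeded r = 0.5 with them over the 16 centred animals. NR4A3 had 0 of 34 beside 3.33% of all genes, and FOSL1 1 of 34 (2.94% beside 14.0%). FOS had 9 (26.5% beside 1.66%), ATF3 7 (20.6% beside 1.42%), EGR1 6 (17.6% beside 2.19%) and JUN 9 (26.5% beside 5.56%). NR4A2, above background in 2 of the 16 animals, had 12 (35.3% beside 14.8%). Within set A, which leaves out MI 7, the share of all genes over 0.5 was itself higher for FOS, EGR1, ATF3 and NR4A3. There FOS had 5 of 34 (14.7% beside 8.83%), EGR1 4 (11.8% beside 6.62%) and ATF3 8 (23.5% beside 3.84%). FOSL1 had 4 (11.8% beside 7.82%), JUN 1 (2.94% beside 5.28%), NR4A3 0 (beside 8.57%) and NR4A2 0 (beside 10.9%). In set A the shares for JUN and NR4A2 were thus below those of all genes, those for FOS and EGR1 lay nearer to them than over the 16 animals, and ATF3 had the widest gap. Set A keeps MI 4, whose ATF3 signal was 10.54, with the next animal of the set, MI 3, at 7.41. The ATF3 count without MI 4 was not computed.

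Among the listed partners, regulators and targets of the group, MEF2A was the 1 gene that passed over all animals, and the counts stand beside 7.63% of all genes. Of 5 measured bZIP partners of AP-1, DDIT3, ATF7, ATF5 and ATF4 had the lowest p and 0 of 5 passed, with differences of -0.14, -0.14, -0.10 and 0.03. Of 21 kinases and factors upstream of these genes 1 passed: MEF2A, a muscle transcription factor, fell by 0.30 (10.05 ± 0.18 in Sham to 9.75 ± 0.15 in MI, SD, n = 8 each, adjusted p = 0.0341). Its call held without MI 4, MI 8, Sham 7 or Sham 8 and was lost without any other single animal (adjusted p up to 0.0699). Over all 30 alternatives, the single omissions among them, the MEF2A call was lost in 16 (limma adjusted p up to 0.770). The kinases MAP2K4, RPS6KA3 and RPS6KA1 differed by 0.20, 0.22 and -0.24 (adjusted p = 0.0935, 0.154 and 0.294).

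Of 15 partners and targets of NR4A receptors 0 passed. The mitochondrial kinase PDK4, which limits glucose oxidation, differed by 0.71 (SE 0.32, adjusted p = 0.198) over all animals and by 1.32 within set A (adjusted p = 0.0409). The glycogen phosphorylase kinase subunit PHKG1, not above background, differed by -0.18 (adjusted p = 0.156), the coactivator NCOA1 by -0.17 and the mitochondrial carrier UCP3 by 0.15.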

How the data were processed

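Left ventricular RNA of 16 pigs was hybridised to 1 Affymetrix porcine array each. The range of the deposited values (2.87 to 14.9) and their equal median on every array (6.24) are those of a normalized log2 scale, and they were analysed unchanged. How the authors normalized and summarised the log2 signals before deposit is not given in the sources used here. Precision is set by the number of animals and, for dim probe sets, by the background.

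After 124 control probe sets were set aside, 23999 of 24123 remained: 10069 with 1 gene symbol, 198 with several and 13732 with none, from the platform annotation, which can be old. A gene with several probe sets was represented by that with the highest mean. limma 3.58.1 in R 4.3.3 fitted a mean per combination of group and sex (4 means, 12 residual degrees of freedom), and the MI against Sham contrast averaged both sexes. P-values were two-sided and adjusted by Benjamini-Hochberg over all 23999 probe sets, passing under 0.05. Every adjusted p of a difference in signal or spread is from limma, that of a correlation from permutation: exact over pairings within a group, and by 100000 draws within groups for the 16 centred animals (Python 3.11.15, NumPy 2.4.6, pandas 2.3.3).

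The arrays were divided into sets A and B at the largest gap of the poly-A spike-ins minus the hybridisation controls. The fits were tested on simulated data, where that of the group difference recovered most of the changed probe sets and that of the spread between animals recovered few of those given a much larger spread in MI. Named genes were all members, the 4 genes of each pathway list with the lowest p, and the 5 genes most correlated with NR4A3 over 16 animals and in set A; pairs of FOS and ATF3 with listed genes were picked after their values were seen. The members and lists were chosen with earlier results of these data known. Animals sharing a number in the labels were not treated as pairs (the check stands with the alternatives). Alternatives were group only, replicate block, quantile normalization, median centring, the 16000 brightest probe sets, an offset of 32, trend with robust estimation, array weights, the mean over probe sets, set A, set B, set as a block (also without MI 7), each animal left out, rank correlation and set means subtracted. Those added after seeing the data were the probe sets above background, the pooled centred correlations, the pairs with other immediate early genes, and the contrasts within sexes without MI 7 or with the set block. No probe, promoter or protein sequences or genome coordinates were used here.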

Additional observations from a re-analysis of the deposited data

Results flagged for a closer look

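Of 24 groups of 8 values (12 probe sets in MI and in Sham), 5 had a single animal far from the rest. Its gap to the next, divided by the range of the group, exceeded the 95% limit of Dixon. That limit is for independent, normally distributed values, whereas these groups share animals and some are probe sets of the same gene. The share of all probe sets over this limit was not computed, so the count does not set these genes apart. All 5 were the highest of their group. ATF3 was 10.5 in MI 4, with the next MI animal at 7.64, and 9.16 in Sham 8, with the next Sham animal at 6.37. NR4A2 was 6.63 in MI 7, with the next MI animal at 5.30. The brighter NR4A3 probe set was 10.5 in Sham 4, with the next Sham animal at 8.73, and the dimmer one was 6.74 in MI 7, with the next MI animal at 4.63. The 2 NR4A3 flags thus fell on different animals and different probe sets, and MI 7 was 6.29 on the brighter one. What set these animals apart was not tested.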

How the results depend on the processing

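MI against Sham called 2527 probe sets, and 654 among the 16000 brightest, 993 among those above background and 1 in set B. Member genes passing were 1, and 0 with the 16000 brightest, with trend and robust estimation, in set A, in set B and above background; over the omissions of single animals the count ran from 0 to 1. Within females 685 probe sets passed, and 90 with the 16000 brightest, 201 in set A and 200 above background, with 376 to 710 over the omissions and 0 to 1 member genes, the 1 being NR4A3 without Sham 4. Within males 816 passed, and 131, 323 and 265 in the same order, 1440 with array weights and 415 to 950 over the omissions. For set B against set A 0 member genes passed, 2 with set and group alone, and over the omissions 0 to 1, with 2774 to 4285 probe sets. The causes of these changes were not tested. Some of the alternatives have fewer animals or fewer probe sets.

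Directions that turned were those of small or uneven differences. The dimmer NR4A3 probe set was -0.10 with array weights, -0.37 in set A, -0.32 with the set block without MI 7, and -0.29 to 0.11 over the omissions. FOS was -0.42 in set A, -0.37 with the set block without MI 7, and -0.17 to 0.96 over the omissions. In set B alone the third EGR1 probe set was 0.055, EGR1 0.047, ATF3 -0.20, PER1 0.052, ATF7 0.17, PDK4 -0.061, NCOA1 0.065 and UCP3 -0.0087. Over the omissions the third EGR1 probe set ran from -0.17 to 0.14, ATF3 from -0.053 to 0.83 and ATF4 from -0.026 to 0.068.

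Within MI, NR4A3 and NR4A2 correlated at 0.238 by rank, 0.165 with set means subtracted, 0.709 in set A and 0.305 with the mean over probe sets. NR4A3 and FOS gave 0.0623, 0.116 and 0.367 for the last 3, NR4A3 and JUN 0.00080, 0.0185 and 0.211, and NR4A3 and FOSL1 0.0985 and 0.122 for set means and set A. Over the omissions in MI, r with NR4A3 ran from -0.413 to 0.0532 for NR4A2, -0.163 to 0.198 for FOS, -0.526 to 0.0312 for JUN, -0.247 to 0.382 for EGR1 and -0.0376 to 0.374 for ATF3. In Sham it ran from -0.0270 to 0.427 for JUN and -0.0730 to 0.505 for ATF3.

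Animal numbers recur in both groups. Same-numbered animals correlated at -0.0701 to 0.456 in their deviations from the group means, over 0.1 in 4 of 8 pairs. Of 8 MI animals 2 correlated best with their own number. This check cannot exclude that the numbers pair some animals, and the main fit did not treat them as pairs. With the number as a replicate block 2790 probe sets and 1 member gene passed (FOSL1, 0.28, adjusted p = 0.0420). Among the named genes the block changed the call of EGR4 alone (-0.24, adjusted p = 0.0525). No such fit was made for the sexes, their contrast, the array sets or the spread. Contrasts involving sex were not computed in set B alone, nor the spread within either set. Arrays have no read depth. NR4A2, the dimmer NR4A3 probe set and the dimmest FOSL1 probe set lay near or under background.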
